A study of Mus musculus with 6 samples.

Results

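The genes described here encode the protein components of the cytosolic ribosome. They were taken by symbol from the deposited tables, as Rpl or Rps followed only by digits and at most one of the letters a, x or y, together with Rplp0, Rplp1, Rplp2 and Rpsa. Pseudogene symbols and the Rps6k kinases were left out. The rule found 76 genes of the 16799 present in both tables, 46 of the large (60S) subunit and 30 of the small (40S) subunit, on 19 chromosomes. The symbols Rps3a1 and Fau, which also encode ribosomal proteins, fall outside the rule.

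RNA came from BaF3, a mouse blood cell line that grows on interleukin-3 and that the labels class as pro-B, kept in 2 ng/mL mouse interleukin-3 and 10% serum. All groups were nucleofected with a plasmid that carries Clover, a green fluorescent protein, and were sorted 24 hours later. ICN cells received Clover with ICN, the intracellular part of Notch1, CTdel cells received Clover with CTdel, which the series describes as a mutated ICN, and con cells received Clover alone. Each group had 2 libraries, numbered replicate 1 and replicate 2, and the labels do not say whether these were separate cultures, so a p-value here reflects only how far the libraries spread. The labels do not state what the CTdel mutation removes.

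Every ribosome holds 1 copy of nearly all of these proteins, which is why their genes are expressed in parallel and at high levels. Their mRNAs begin with a run of pyrimidines, the 5′ terminal oligopyrimidine (TOP) motif, through which mTORC1 and the binding protein Larp1 set how strongly they are translated. A cell that grows faster generally makes more ribosomes, and free ribosomal proteins such as Rpl5 and Rpl11 can bind and block Mdm2, the ubiquitin ligase that degrades p53.

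The transfected gene separated the labels, with Notch1 at 190 and 888 FPKM in the ICN libraries, 84.9 and 25.4 in the CTdel libraries, and 0.89 and 1.72 in the con libraries. FPKM scales fragments by transcript length and library size, and read totals are unknown. The summed FPKM of all genes ran from 489693 to 507894 per library. Of 12 B-lineage markers, 9 were in both tables and 7 of these stayed under 1 FPKM in all 6 libraries, among them Rag1 and Ebf1. Cd79b stood at 6.36 and 4.34 FPKM in ICN, 8.3 and 13.4 in CTdel, and 3.62 and 4.32 in con. Cd79a stood at 1.35 and 2.08 FPKM in ICN, 0.84 and 3.15 in CTdel, and 0 and 0.79 in con. Most of these markers thus did not match the labelled pro-B type. The summed level of the 9 was 7.27 to 8.16 in ICN, 9.42 to 17.6 in CTdel and 3.87 to 5.51 in con. The interleukin-3 receptor subunit Csf2rb stood at 289 and 297 FPKM in ICN, 194 and 166 in CTdel, and 273 and 170 in con. In bulk RNA, fewer cells of a type and less RNA per cell cannot be told apart.

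An annotated start is shown for some members, because the TOP motif lies at the start of the mRNA. For Rpl7a the start shown lies inside the gene, whose RefSeq position begins at base 26910685 of chromosome 2. Sequences are from RefSeq on GRCm38.p6, which held 66 starts of 56 members. Each line gives 20 bases before and 20 bases from the annotated start, 5′ to 3′ on the strand of the gene, and capitals mark an unbroken run of at least 5 pyrimidines that holds the start or begins within 5 bases of it.
Rpl7a, chr2:26910787-26910826, plus strand: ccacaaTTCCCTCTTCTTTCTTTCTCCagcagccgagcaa
Rpl14, chr9:120571497-120571536, plus strand: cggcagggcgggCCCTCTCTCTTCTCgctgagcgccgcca
Rps6, chr4:86857348-86857387, minus strand: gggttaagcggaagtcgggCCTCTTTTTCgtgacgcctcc
Rplp2, chr7:141447631-141447670, plus strand: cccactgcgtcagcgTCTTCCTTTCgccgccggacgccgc
Rps18, chr17:33955646-33955685, minus strand: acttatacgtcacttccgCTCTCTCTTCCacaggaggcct
Rps27, chr3:90213629-90213668, minus strand: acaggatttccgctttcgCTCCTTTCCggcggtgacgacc
Rps26, chr10:128626487-128626526, minus strand: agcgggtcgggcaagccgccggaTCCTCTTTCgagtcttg

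A run of this kind was present in 27 of the 56 members (48.2%), against 28.3% of the 8679 other tested genes with a promoter and 27.0% of all 27025 genes in the table. The annotated starts of Rpl41, Rpl11 and Rplp0 had no such run. Where transcription starts was not measured here, so an annotated start without a run does not show an mRNA without the motif.
Rpl41, chr10:128549149-128549188, minus strand: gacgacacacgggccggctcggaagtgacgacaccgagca
Rpl11, chr4:136053374-136053413, minus strand: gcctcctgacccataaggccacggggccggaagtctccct
Rplp0, chr5:115559447-115559486, plus strand: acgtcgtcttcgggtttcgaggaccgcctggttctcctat

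Searched on the sense strand from 20 bases before to 50 after the start, the word CTTTC was found in 53.6% of members against 8.80% of the other tested genes, TCTTT in 42.9% against 6.07%, and CTTTT in 23.2% against 6.89%. At least 1 of the 3, which can overlap one another, was present in 71.4% of members against 16.5% of the other tested genes. Over the whole 300 bases and both strands, CCGGAA was found in 55.4% against 34.2%, GGGCGG in 60.7% against 68.3%, TATAAA in 10.7% against 8.33%, and AAGATGGC in 8.93% against 5.80%. Members with the run had a median level of 1431 FPKM and a median ICN minus con change of −0.10. Members with a promoter and no run had 1219 FPKM and −0.16.

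Ribosomal protein genes took a large part of the measured RNA in every group. Their summed FPKM was 19.8% and 21.4% of all FPKM in the ICN libraries, 22.5% and 21.5% in the CTdel libraries, and 23.5% and 20.5% in the con libraries. Group means were 20.6% ± 1.15 in ICN, 22.0% ± 0.69 in CTdel and 22.0% ± 2.09 in con (SD, n = 2 each). ICN replicate 1 was the lowest library and con replicate 1 the highest, but the con libraries lay further apart than the ICN and con means, and the groups overlapped. With 2 libraries a group, an exact permutation test cannot give a p under 0.333, so none was run.

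The proportion of the subunits overlapped between groups. Summed 40S over summed 60S FPKM was 0.710 and 0.737 in ICN, 0.715 and 0.701 in CTdel, and 0.713 and 0.681 in con. A median member stood at 1245 and 1206 FPKM in ICN, 1410 and 1256 in CTdel, and 1503 and 1246 in con, whereas the median gene of the tables lay between 4.74 and 5.52. Between 62 and 65 members were among the 100 highest genes of each library. The order of the members by level was nearly fixed, with a Spearman rho of at least 0.94 between any pair of libraries over the 76 members.

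**Figure D1:**
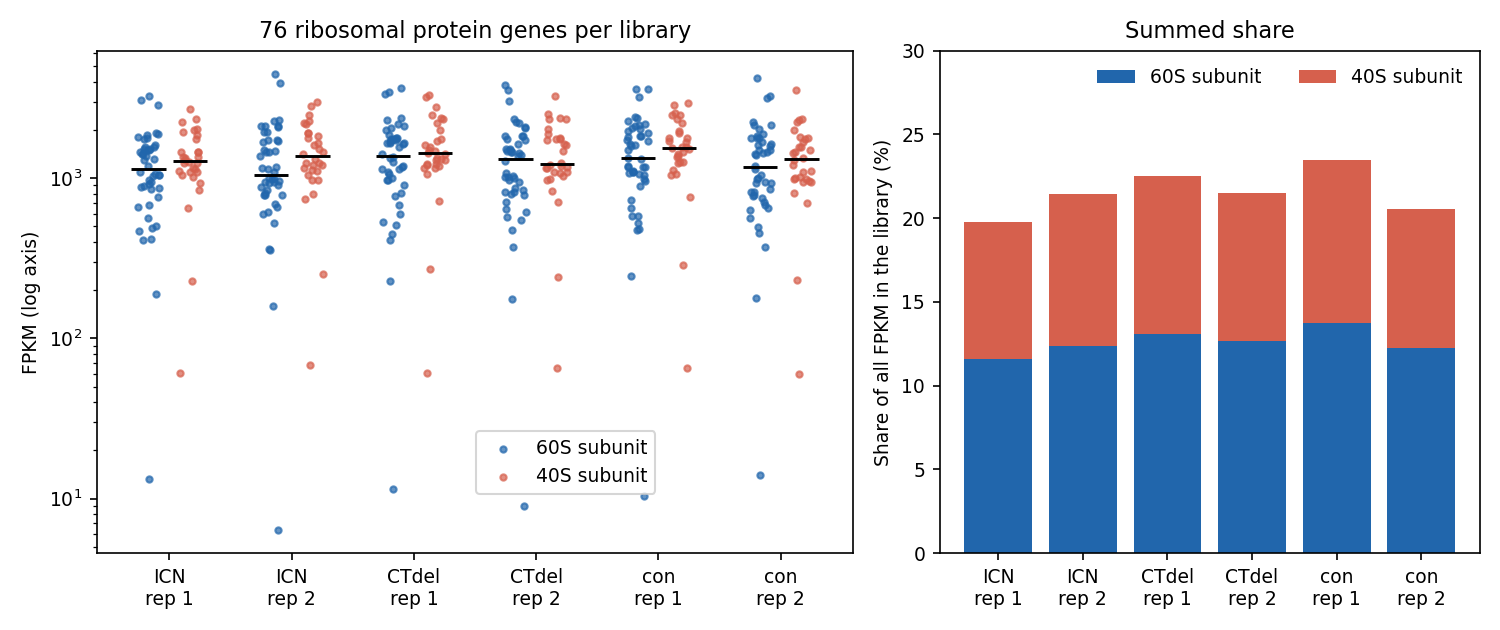
Left, FPKM on a log axis of the 76 genes in each library, 60S members in blue and 40S members in red, with the median of each as a bar; right, the summed share of all FPKM in percent. Shares run from 19.8% in ICN replicate 1 to 23.5% in con replicate 1, and the groups overlap.

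Rplp1 and Rplp0, of the acidic stalk that recruits elongation factors to the ribosome, had the highest mean levels, and the third stalk protein, Rplp2, ranked 22 with a mean of 1718 FPKM. Rplp1 stood at 3249 and 4483 FPKM in ICN, 3437 and 3807 in CTdel, and 3576 and 4236 in con. Rplp0, the stalk base, stood at 2853 and 3890 FPKM in ICN, 3648 and 3554 in CTdel, and 3206 and 3272 in con. Values of both genes overlapped between ICN and con, and Rplp0 was above both con libraries in CTdel. Rps2, of the mRNA entry side, averaged 3093 FPKM over the 6 libraries. Rpl41, the shortest ribosomal protein, averaged 3058, and Rps18, of the head of the small subunit, 2638.

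At the low end were Rpl26, Rps15a, Rpl22, Rps20 and Rpl21. Rpl26, which lies near the peptide exit tunnel, had 13.3 and 6.34 FPKM in ICN, 11.4 and 9.02 in CTdel, and 10.4 and 14.1 in con. That is the only member under 50 FPKM, and its libraries overlapped between groups. Rps15a had 61.0 and 67.8 FPKM in ICN, 61.2 and 65.1 in CTdel, and 64.8 and 59.8 in con. Rpl22, needed in mice for alpha-beta T cell development, had 188 and 158 in ICN, 227 and 176 in CTdel, and 246 and 179 in con.

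Level per length depends on the length that is divided by. In GENCODE M21, matched by RefSeq transcript, Rps15a, Rps20, Rpl22 and Rpl21 have 5179, 3706, 2051 and 1856 bases, against a median of 795 over the members and 2697 over the other tested genes. The 9 members of at least 1500 bases had a median level of 631 FPKM, and the other 67 of 1431. The 9 also held Rpl4 (1736 FPKM) and Rpsa (1711 FPKM), and Rpl26 was low at 526 bases. Over all 76 members the Spearman rho of mean level with annotated length was −0.08, given as a description. Which lengths the authors divided by is not given here.

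**Figure D2:**
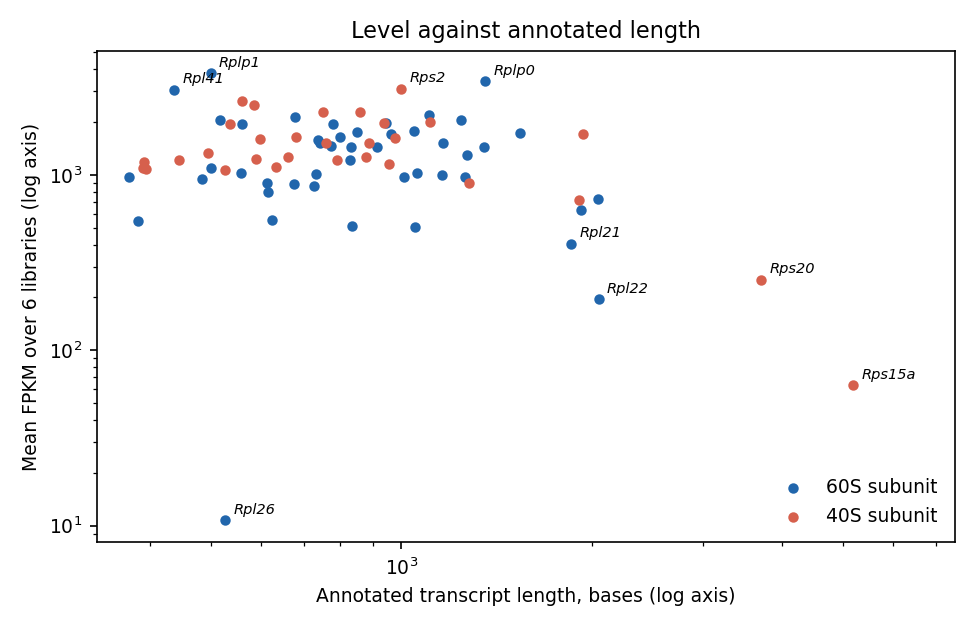
Mean FPKM over the 6 libraries against annotated transcript length in bases, both on log axes, with 60S members in blue and 40S members in red. Rps15a and Rps20 are the longest members and among the lowest, whereas Rpl26 is low at 526 bases.

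Copies of these genes make some levels uncertain. The tables held 7 pseudogene rows of members, which summed to 2099 and 1638 FPKM in ICN, 2399 and 1669 in CTdel, and 2474 and 1546 in con. Rps15a-ps6 alone had 333 and 191 FPKM in ICN, 345 and 204 in CTdel, and 412 and 187 in con, above Rps15a itself. Rpl14, Rpl31, Rpl34, Rplp2 and Rps19 also have such rows, and fragments of near-identical copies may have been split between them.

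Among the paralogs, Rps27l, a p53 target in human and mouse, had 245 and 277 FPKM in ICN, 189 and 174 in CTdel, and 180 and 210 in con. Its ICN libraries were above both con libraries (log2 change 0.42, adjusted p = 0.383 in limma). Rpl22l1 had 374 and 226 FPKM in ICN, 412 and 394 in CTdel, and 486 and 371 in con, with ICN and con overlapping (log2 change −0.55, adjusted p = 0.343 in limma). Rpl36al stood at 405 and 350 FPKM in ICN, 460 and 373 in CTdel, and 475 and 460 in con, so its ICN libraries lay below con. Rpl7l1 stood at 83.9 and 122 FPKM in ICN, 81.5 and 89.3 in CTdel, and 66.4 and 105 in con, with all groups overlapping. Rpl3l, a low paralog, had 3.01 and 1.25 FPKM in ICN, 5.24 and 1.4 in CTdel, and 0.71 and 0.33 in con, so that both groups lay above con. Its log2 changes were 0.99 in ICN (adjusted p = 0.266 in limma) and 1.36 in CTdel (adjusted p = 0.141 in limma), and the CTdel change passed with only CTdel and con fitted (adjusted p = 0.0278 in limma) or with either ICN library left out (adjusted p = 0.0297 without replicate 1 and 0.0265 without replicate 2, in limma). Rpl39l and Rpl10l reached at most 0.2 FPKM.

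Comparison of ICN with con asks whether the Notch1 intracellular part moves the ribosomal protein genes. Of the 76 members 0 were called higher, where 0.0362% of the 11050 genes tested were, and 0 were called lower, where 0% were (limma on log2(FPKM + 1), Benjamini-Hochberg adjusted p under 0.05 over all genes). At an unadjusted p under 0.05, 0 members passed. Their median change was −0.12, against 0.00 over all tested genes, and ran from −0.41 to 0.18, with 61 negative and 15 positive. With quantile normalization the members' median was −0.07, the same as over all genes, with 49 negative and 27 positive. The median half-width of the 95% interval of a member's change was 0.48, so changes of this size were not detectable with 2 libraries a group.

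The direction depended on the replicate. In replicate 1, 75 of 76 members were lower in ICN than in con, with a median of −0.25. In replicate 2, 29 were lower and 47 higher, with a median of 0.05. As a result 28 members were lower in ICN in both replicates, 0 were higher in both, and 48 had opposite signs. As shares, 36.8% of members were lower in both and 63.2% of opposite sign, against 26.7% and 43.5% of all tested genes, of which 3297 were higher in both. These counts depend on matching ICN and con libraries by replicate number. The deviations of libraries so matched correlated at −0.099 over all tested genes and 0.384 among the members. Within con, replicate 2 minus replicate 1 had a median of −0.22 over the members, and 64 of 76 were lower in replicate 2, so that difference was about as large as the one between ICN and con in replicate 1.

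Both ICN libraries were below both con libraries for 19 members (25%), where 19.6% of all tested genes were, and above both for 0 members, where 22.7% were. Of the 19, 14 were 60S and 5 were 40S members. Median changes were −0.14 for 60S members (−0.23 in replicate 1, 0.01 in replicate 2) and −0.10 for 40S members (−0.28 and 0.08).

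**Figure D3:**
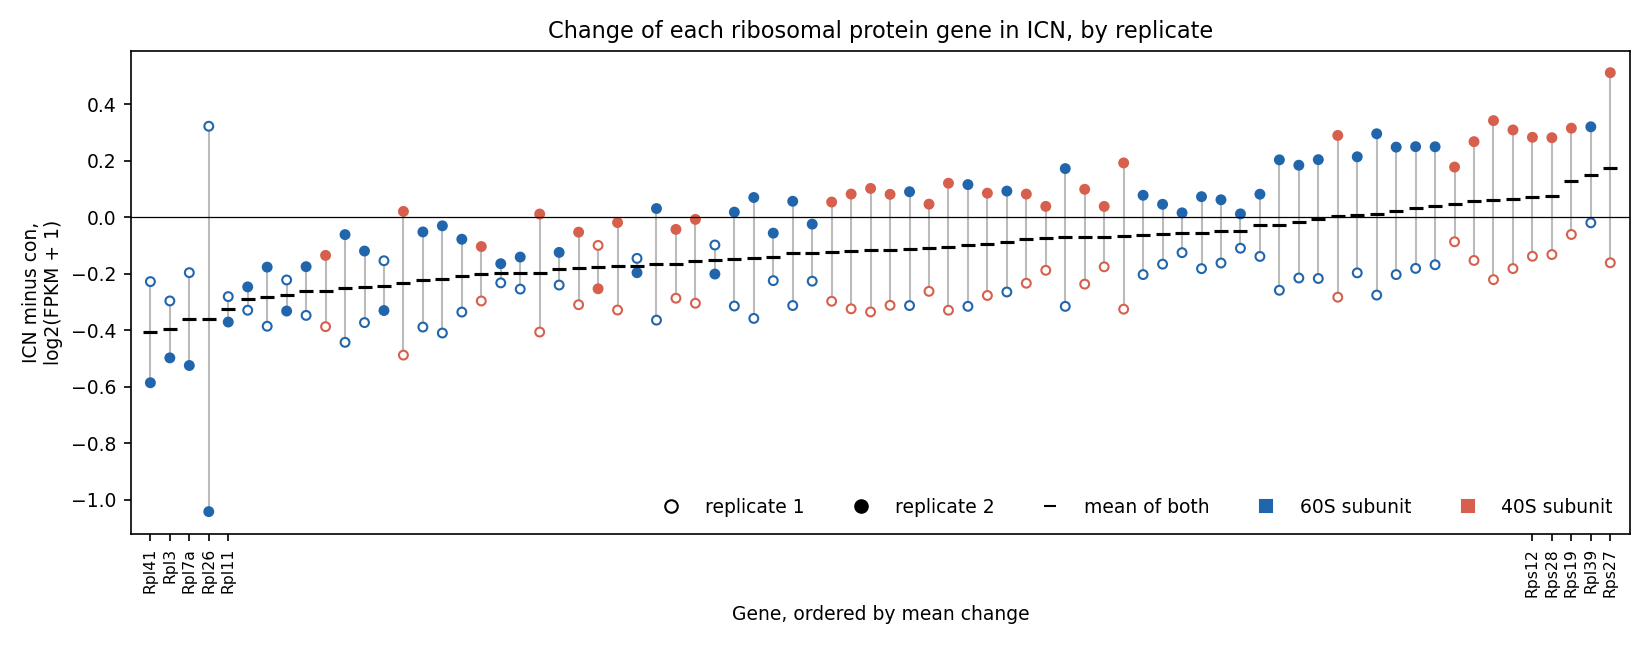
ICN minus con in log2(FPKM + 1) for each member, replicate 1 as open and replicate 2 as filled circles, with the mean of both as a bar, ordered by that mean, with the 5 lowest and the 5 highest named; 60S members are blue and 40S members red. Open circles lie below 0 for 75 of 76 members, and filled circles lie on both sides.

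The 5 members with the most negative ICN changes were all of the large subunit, to which 46 of the 76 members belong. Rpl41 had 3076 and 2115 FPKM in ICN and 3602 and 3175 in con, with no overlap (log2 change −0.41, SE 0.19, adjusted p = 0.382 in limma). Rpl3, a core protein near the peptidyl transferase centre, had 1405 and 1004 FPKM in ICN and 1725 and 1418 in con, with no overlap (log2 change −0.40, SE 0.19, adjusted p = 0.382 in limma). Rpl7a had 1304 and 1098 FPKM in ICN and 1494 and 1580 in con, with no overlap (log2 change −0.36, adjusted p = 0.415 in limma). In CTdel, Rpl41 had 3356 and 3021 FPKM, Rpl3 had 1652 and 1476, and Rpl7a had 1671 and 1440, each overlapping con.

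Among the ribosomal proteins that bind 5S rRNA and can restrain Mdm2, Rpl11 had 1314 and 1152 FPKM in ICN and 1597 and 1489 in con, with no overlap (log2 change −0.33, adjusted p = 0.430 in limma). Rpl5 had 678 and 656 FPKM in ICN and 888 and 680 in con, also with no overlap (log2 change −0.22, adjusted p = 0.599 in limma). Rpl8 and Rpl10, which lie on the peptidyl transferase side, had log2 changes of −0.26 and −0.25 and were below con in both ICN libraries. Rpl26 had a mean change of −0.36 that joined 0.32 in replicate 1 with −1.04 in replicate 2.

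At the other end, Rps27, a zinc-finger protein, had 1233 and 1410 FPKM in ICN and 1379 and 989 in con (log2 change 0.18, adjusted p = 0.724 in limma). Its replicates had opposite signs, −0.16 and 0.51. Rpl39, which lines the exit tunnel, had 1063 and 785 in ICN and 1078 and 629 in con (log2 change 0.15). Rps19, which is needed to mature the 40S subunit and is mutated in human Diamond-Blackfan anaemia, had a change of 0.13, Rps28 0.07 and Rps12 0.07, each with opposite signs in the replicates.

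Stalk changes were 0.04 for Rplp0, −0.03 for Rplp1 and 0.02 for Rplp2. Of the other 40S members with named roles, Rps6, the substrate of S6 kinase, had a log2 change of −0.20, Rps27a, made as a ubiquitin fusion, −0.11, Rps4x, which is X-linked, −0.16, Rps26, at the mRNA exit, −0.18, and Rpsa, also known as the laminin receptor, −0.23. None of these passed in limma, with adjusted p from 0.597 (Rpsa) to 0.807 (Rps27a). With 1 library left out the change ran from −0.44 to −0.03 for Rpsa, −0.36 to −0.03 for Rps6, −0.31 to −0.05 for Rps26 and −0.28 to −0.05 for Rps4x.

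**Figure D4:**
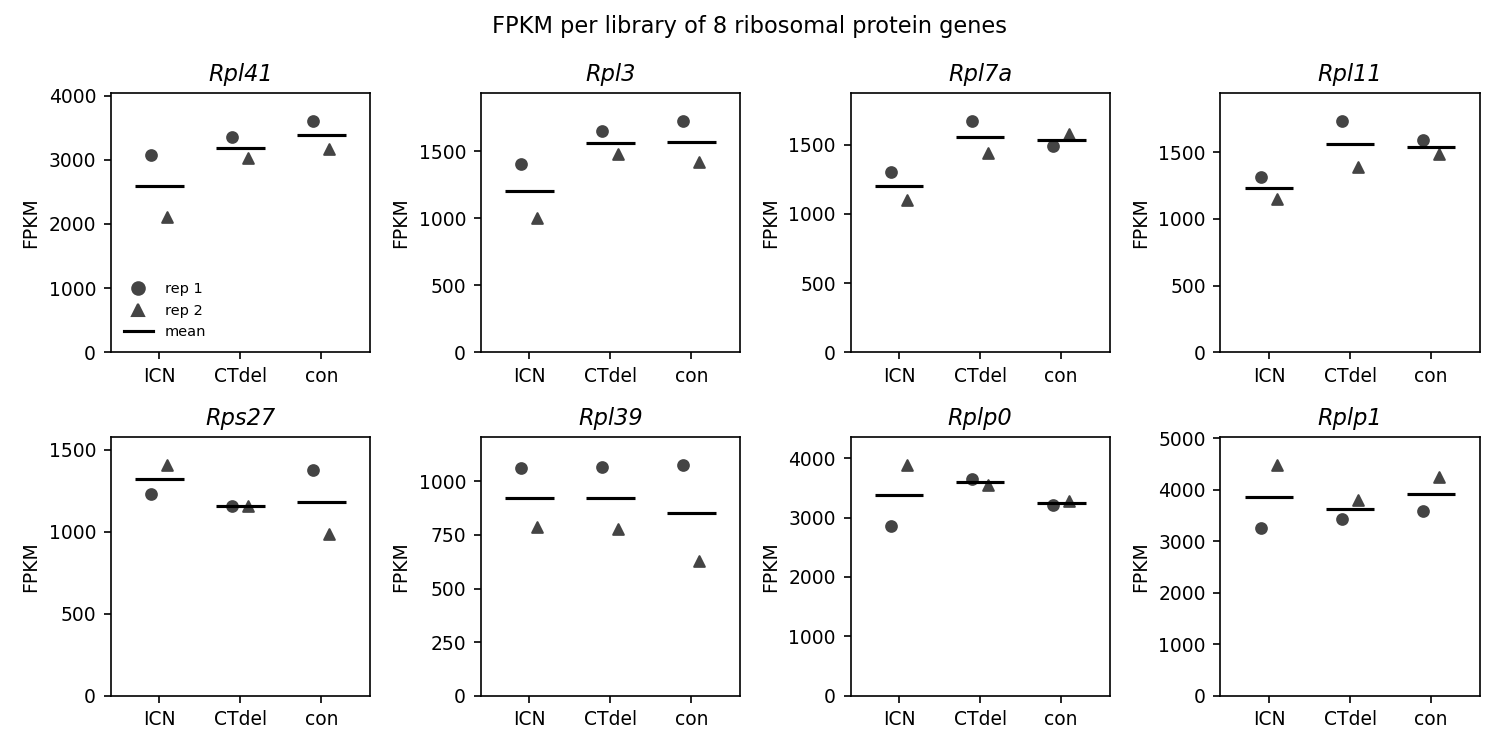
FPKM of 8 members by group and replicate, circles for replicate 1, triangles for replicate 2 and bars for the mean. ICN lies below con for Rpl41, Rpl3, Rpl7a and Rpl11, and overlaps con for Rps27, Rpl39, Rplp0 and Rplp1.

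Comparison of CTdel with con asks whether the mutated form moves them. Of the 76 members 0 were called higher, where 1.3% of all tested genes were, and 0 lower, where 0.109% were. At an unadjusted p under 0.05, 0 passed. The median change was −0.00 (−0.06 in replicate 1, 0.06 in replicate 2), against −0.06 over all tested genes. In both replicates 14 members (18.4%) were lower and 20 higher, where 3959 (35.8%) and 2894 of the 11050 tested genes were. Both CTdel libraries were above both con libraries for 3 members, where 18.3% of all tested genes were, and below both for 5, where 23.5% were.

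Rpl36 had the most negative change, with 408 and 546 FPKM in CTdel and 524 and 709 in con (log2 change −0.37, SE 0.18, adjusted p = 0.554 in limma); its changes within the replicates were −0.36 and −0.37, yet the groups overlapped. Rpl13a was below both con libraries, with a log2 change of −0.15. Rpl31, at the exit site, had 532 and 570 FPKM in CTdel and 475 and 496 in con (log2 change 0.18, adjusted p = 0.813 in limma), with no overlap. Rps16 and Rplp0 were also above both con libraries, with log2 changes of 0.17 and 0.15. Rpl35a and Rps29 had 0.18 and 0.16, both overlapping con. With 1 library left out the change ran from −0.30 to −0.01 for Rpl13a, 0.01 to 0.29 for Rplp0 and 0.03 to 0.32 for Rpl35a.

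Comparison of CTdel with ICN asks how the mutated and the ICN form differ for these genes. Notch1 FPKM differed too, at 190 and 888 in ICN and 84.9 and 25.4 in CTdel. The mutation and the amount of the transfected RNA therefore cannot be told apart. These FPKM may not measure that amount alike in both groups, because what CTdel removes and the length divided by are not given. Of the 76 members 0 were called higher, where 0% of all tested genes were, and 0 lower, where 0.0181% were. At an unadjusted p under 0.05, 0 passed. The median change was 0.12 (0.22 in replicate 1, 0.02 in replicate 2), against −0.04 over all tested genes, with 64 positive and 12 negative. With quantile normalization it was 0.02, against 0.01 over all genes, with 43 positive and 33 negative. In both replicates 44 members were higher and 4 (5.26%) lower, where 2656 and 4234 (38.3%) of the 11050 tested genes were. Both CTdel libraries were above both ICN libraries for 27 members (35.5%), where 15.6% of all tested genes were, and below both for 3 (3.95%), where 25% were. These differences use the same ICN libraries as ICN minus con, so the comparisons are not independent.

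Rpl37 had 682 and 472 FPKM in CTdel and 499 and 360 in ICN (log2 change 0.42, SE 0.19, adjusted p = 0.705 in limma), and the groups overlapped. Rpl3, Rpl7a and Rpl11 were above both ICN libraries in CTdel, with log2 changes of 0.39, 0.37 and 0.34, and Rpl41 overlapped with 0.32. Of the negative changes, Rps27 and Rps28 were below both ICN libraries, with −0.19 and −0.12, and Rpl36, Rplp2 and Rpl24 overlapped with −0.22, −0.10 and −0.08.

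**Figure D5:**
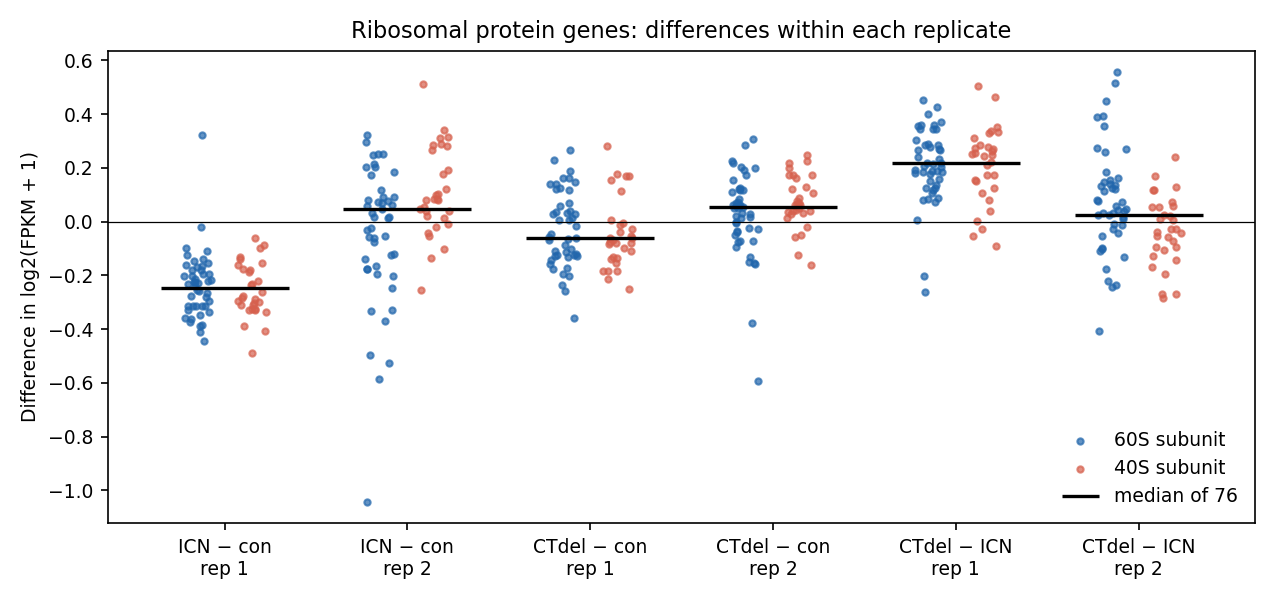
Difference in log2(FPKM + 1) of each member within each replicate for the 3 comparisons, 60S members in blue and 40S members in red, with the median of 76 as a bar. The median of ICN minus con is −0.25 in replicate 1 and 0.05 in replicate 2.

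Other genes of translation gave the setting. In ICN minus con, 0 of 16 tested TOP mRNAs beyond the ribosomal proteins were called, with a median of −0.33. Of the 16, 12 (75%) were lower in both replicates, where 26.7% of all tested genes were. Npm1, a nucleolar chaperone, had a change of −0.69 (adjusted p = 0.295 in limma). With 1 library left out it ran from −1.03 to −0.35, the lowest without ICN replicate 1, where 1 library stands for ICN. Vim had −0.49 (adjusted p = 0.383 in limma). Of 32 other initiation factors 0 were called (median −0.21, from 0.02 in replicate 1 and −0.29 in replicate 2), and of 16 genes of the mTORC1 axis 0 (median −0.05). Of 6 chaperones of ribosomal proteins 0 were called, with a median of −0.39 that joined 0.20 in replicate 1 and −0.72 in replicate 2. In CTdel minus con the medians were −0.24 for the initiation factors, −0.33 for the chaperones and −0.11 for the mTORC1 axis. For the TOP mRNAs the CTdel median was nearer 0, at −0.04. Of the 32 initiation factors 30 had negative changes in CTdel and 24 in ICN, so their lower values were not particular to ICN. In ICN minus con Eif4e, which binds the mRNA cap, had −0.47 (adjusted p = 0.349 in limma), Rps6kb1, the S6 kinase, −0.43 (adjusted p = 0.378 in limma) and Ltv1 −0.45 (adjusted p = 0.391 in limma). Ddit4, also of the mTORC1 axis, went the other way with 1.39 (adjusted p = 0.379 in limma). With 1 library left out the Ddit4 change ran from 0.23 to 2.56.

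Mitochondrial ribosomal proteins (77 tested, 0 called) also differed by replicate, with ICN minus con medians of 0.08 in replicate 1 and −0.49 in replicate 2. Their CTdel minus con medians were 0.03 and −0.37, with 66 of 77 negative, against 58 in ICN minus con. Of the 4 genes of the p53 branch, 0 were called in ICN minus con, with a median of 1.02 (0.29 in replicate 1, 1.85 in replicate 2). Mdm2 had 1.69 (adjusted p = 0.259 in limma) and Cdkn1a, which halts the cell cycle, 1.53 (adjusted p = 0.323 in limma). Cdkn1a stood at 254 and 820 FPKM in ICN and 188 and 131 in con. With 1 library left out the change ran from 0.68 to 2.70 for Mdm2 and from 0.35 to 2.71 for Cdkn1a. Both were highest without ICN replicate 1, where 1 library stands for ICN. Markers of other cells that were called were Gata2 and Cpa3, both in CTdel minus con. Gata2, of mast cells and progenitors, stood at 104 and 78.0 FPKM in ICN, 74.7 and 61.8 in CTdel, and 238 and 192 in con. It fell in CTdel (log2 change −1.64, adjusted p = 0.0261 in limma). Cpa3, a mast cell protease, also fell in CTdel (log2 change −1.88, adjusted p = 0.0437 in limma). In ICN both also had negative changes, without a call (−1.24 for Gata2 and −1.21 for Cpa3, adjusted p = 0.123 and 0.185 in limma). Jak2, the kinase of the interleukin-3 receptor, had 1.17 in ICN without a call (adjusted p = 0.169 in limma). It rose in CTdel (log2 change 2.01, adjusted p = 0.0265 in limma). These 3 calls were lost with no filter on low values, without con replicate 1 and without con replicate 2 (adjusted p in limma of 0.112, 0.0602 and 0.0620 for Gata2, 0.251, 0.117 and 0.0521 for Cpa3, and 0.139, 0.0532 and 0.0639 for Jak2). Without CTdel replicate 1 those of Gata2 and Cpa3 were lost (adjusted p = 0.230 and 0.237 in limma), and without CTdel replicate 2 those of Gata2 and Jak2 (adjusted p = 0.177 and 0.137 in limma). The Cpa3 call also needed the replicate block (adjusted p = 0.446 in limma without it) and was lost with the sum of FPKM made equal (0.0505), with that over other genes (0.0512) and with quantile normalization (0.0523). Of the 9 mast cell and basophil markers 3 were in both tables, with summed levels of 81.1 to 115 FPKM in ICN, 63.6 to 79.7 in CTdel and 199 to 267 in con. Of 8 T-cell markers 6 were, with sums of 1.31 to 2.12 in ICN, 1.67 to 3.01 in CTdel and 0.81 to 2.26 in con, and of 7 erythroid markers 4 were, with sums of 166 to 385, 95.5 to 222 and 134 to 631 in ICN, CTdel and con. Alpha-globin Hba-a1 differed between replicates, at 155 and 377 FPKM in ICN, 83.2 and 216 in CTdel, and 118 and 578 in con. Beta-globin Hbb-b1 had 8.34 and 5.56 FPKM in ICN, 8.93 and 5.81 in CTdel, and 13.2 and 51.6 in con. Both groups thus lay below con for Hbb-b1, without a call in ICN (log2 change −1.80, adjusted p = 0.285 in limma). With 1 library left out that change ran from −3.01 to −0.60. The part of these markers in the ribosomal protein values was not tested.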

How the data were processed

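FPKM is the unit of both tables that the authors deposited, 1 for each replicate number. HISAT2, Bowtie2, RSEM, hg19 and mm10 are listed in the submitters' processing notes without version or role. Each FPKM had 1 added and was taken to log2. A limma model (version 3.58.1, R 4.3.3) was then fitted to all 6 libraries at once, with the 3 groups, the table as a block and a spread that follows intensity. It left 2 residual degrees of freedom, and the prior added a median of 3.82. Genes entered if both tables held them and 2 or more libraries reached FPKM 1, which left 11050. Tests were 2-sided, and Benjamini-Hochberg adjustment ran over all of them. A log2 change of a low gene is shrunk by the added 1. The fit was tested on simulated data with changes larger than any of the members, so that test does not cover changes of their size. Read depth is unknown, so no detection limit is given. Named were the 5 highest and 5 lowest members, the 5 largest changes each way per comparison, members with set roles, paralogs, and from other lists called genes or, for ICN, those with the smallest p; leaving out such uncalled list genes for the CTdel comparisons was decided after their values were seen. Some members that this rule names are not reported here. Members and lists were chosen with earlier results of these data known. Alternatives covered the block, pseudocount, filter, scaling, trend, groups fitted and each library left out.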

Additional observations from a re-analysis of the deposited data

How the results depend on the processing

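Of the 76 members 0 were called in each comparison under all 16 alternatives, and the smallest adjusted p of any member was 0.0929 (ICN minus con), 0.344 (CTdel minus con) and 0.174 (CTdel minus ICN). With no replicate block, that is without the table in the model, 3, 130 and 2 genes were called over all genes in ICN minus con, CTdel minus con and CTdel minus ICN, against 4, 156 and 2 with the block. The deviations of same-numbered libraries correlated at −0.099 (ICN and con), 0.326 (CTdel and con) and 0.236 (CTdel and ICN), and among the members at 0.384, 0.626 and 0.625. Over all genes the pairing thus did not hold for ICN and con, and the numbers were taken as tables, not as paired cultures.

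The count over all genes moved more. In ICN minus con it was 0 with no filter on low values, 162 with only the 2 groups fitted, and 11 to 1470 with a library left out, the highest without ICN replicate 1. In CTdel minus con it was 0, 730, and 109 to 731. In CTdel minus ICN it was 0 with a pseudocount of 0.1, 0 with no filter, 1 with a filter at FPKM 5, and 2 to 891 with a library left out. The cause was not tested. Under the scaling alternatives the median change of the members ran from −0.138 (median ratio to con) to −0.067 (quantile normalization) in ICN minus con, −0.030 (quantile normalization) to 0.048 (median ratio to con) in CTdel minus con, and 0.019 (quantile normalization) to 0.188 (median ratio to con) in CTdel minus ICN. It ran over the libraries left out from −0.237 to −0.001 in ICN minus con, from −0.103 (without con replicate 2) to 0.10 (without con replicate 1) in CTdel minus con, and from −0.007 to 0.246 in CTdel minus ICN.

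Of 656 member values under an alternative 0 were called and 24 changed sign. With 1 library left out, the change moved by over 1.5 times for 18 of the 21 members compared in ICN minus con, 9 of 10 in CTdel minus con and 5 of 10 in CTdel minus ICN. Rplp0 in ICN was −0.039 with quantile normalization. With libraries left out, ICN minus con ran from −0.88 to 0.16 for Rpl26, −0.015 to 0.32 for Rpl39, −0.18 to 0.27 for Rplp0, −0.16 to 0.11 for Rplp1, −0.24 to 0.29 for Rplp2, −0.18 to 0.32 for Rps12, −0.046 to 0.30 for Rps19, −0.11 to 0.46 for Rps27, −0.27 to 0.051 for Rps27a, −0.10 to 0.25 for Rps28, −0.10 to 0.78 for Cd79b and −0.40 to 0.91 for Hba-a2. CTdel minus con ran from −0.76 to 0.28 for Rpl26 and −0.083 to 0.40 for Rps29. CTdel minus ICN ran from −0.27 to 0.11 for Rpl24, −0.37 to 0.17 for Rplp2, −0.40 to 0.030 for Rps27 and −0.26 to 0.015 for Rps28.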
